A study of Mus musculus with 2 samples.

Results

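The ligands, receptors and SMAD proteins of the TGF-beta and BMP pathways were examined as a set of 42 mouse genes, together with the latent TGF-beta binding proteins, secreted antagonists and 2 related secreted proteins. The genes are a list of symbols chosen for their roles in the pathway, with earlier results of these data known. All 42 were found among the 55536 annotated genes. Values came from total RNA sequencing of heart tissue of adult male mice aged 8 to 10 months, of the strain labelled 5xFAD/CAST. They form 1 group of 2 libraries labelled biological replicates 1 and 2. These are called library 1 and library 2, and they held 39819960 and 37060119 expected counts. 5xFAD is a transgenic line whose transgenes are driven by the neuronal Thy1 promoter, made as a model of brain amyloid, and CAST is an inbred strain of wild origin. The labels do not say whether the animals carried the transgenes. All libraries belong to this group, so nothing here separates the effect of transgene, strain, sex or age, and no comparison of conditions was made. The libraries come from separate tissue samples with the same donor identifier, so their spread may be technical or biological.

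The tissue label was checked against marker lists. The summed level of 7 cardiomyocyte genes was 28390 TPM in library 1 and 28196 TPM in library 2, all 7 detected. TPM is a level scaled for transcript length and library total, and a gene counts here as detected where both libraries have at least 1 TPM. Endothelial (180 and 164 TPM over 6 genes), fibroblast (194 and 183 TPM over 6 genes), pericyte and smooth muscle (145 and 133 TPM over 6 genes) and macrophage markers (40.9 and 43.2 TPM over 6 genes) were all detected. The samples therefore held RNA of many cell types, and in bulk tissue fewer cells of a type and less RNA per cell cannot be told apart.

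TGF-beta is secreted in a latent complex, bound to a latent TGF-beta binding protein that anchors it in the extracellular matrix, and must be released before it can signal. Ligands of the family bring together type II and type I receptor kinases. The type I receptor then phosphorylates SMAD2 and SMAD3 in the TGF-beta and activin branch or SMAD1, SMAD5 and SMAD9 in the BMP branch, and these enter the nucleus with SMAD4, while SMAD6 and SMAD7 inhibit the pathway. In the heart, the pathway is known for its part in valve and chamber development and in the activation of fibroblasts, and BMP10 is known as a ligand made by cardiomyocytes, in the adult mainly those of the atria.

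Sequences upstream of the start sites are shown for 3 genes on which the results turn. Ltbp4 held the highest level of the set, Ltbp1 and Ltbp4 each have a pair of start sites that the data distinguish, and Bmp10 was the highest ligand. The windows come from RefSeq (GRCm38.p6, the mm10 build) and run 5′ to 3′ on the gene's strand up to the annotated start. They are reference sequence and were not read from these animals, whose alleles may differ. Capitals mark matches on either strand to 4 motifs. CAGAC is known as a SMAD-binding element, and GGCGCC as a second kind of such element that is rich in GC. TATAAA is the core of the TATA box. AGATAA, a motif of the GATA factors, was chosen after the Bmp10 sequence was seen. None of these motifs overlaps another in the windows shown.
Ltbp4 upstream start, chr7:27337693-27337862, minus strand: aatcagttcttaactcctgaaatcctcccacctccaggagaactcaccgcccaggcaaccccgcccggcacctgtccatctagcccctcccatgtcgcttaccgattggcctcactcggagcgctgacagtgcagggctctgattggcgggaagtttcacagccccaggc
Ltbp4 downstream start, chr7:27333664-27333913, minus strand: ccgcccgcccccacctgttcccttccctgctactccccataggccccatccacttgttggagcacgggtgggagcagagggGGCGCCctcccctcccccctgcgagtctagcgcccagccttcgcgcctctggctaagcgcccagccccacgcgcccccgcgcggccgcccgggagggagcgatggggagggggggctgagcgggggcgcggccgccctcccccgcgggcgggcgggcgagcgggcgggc
Ltbp1 upstream start, chr17:75005279-75005528, plus strand: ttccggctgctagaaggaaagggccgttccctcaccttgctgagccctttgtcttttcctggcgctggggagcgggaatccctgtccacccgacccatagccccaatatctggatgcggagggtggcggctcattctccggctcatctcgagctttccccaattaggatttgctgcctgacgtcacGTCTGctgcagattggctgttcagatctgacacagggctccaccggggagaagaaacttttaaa
Ltbp1 downstream start, chr17:75178531-75178780, plus strand: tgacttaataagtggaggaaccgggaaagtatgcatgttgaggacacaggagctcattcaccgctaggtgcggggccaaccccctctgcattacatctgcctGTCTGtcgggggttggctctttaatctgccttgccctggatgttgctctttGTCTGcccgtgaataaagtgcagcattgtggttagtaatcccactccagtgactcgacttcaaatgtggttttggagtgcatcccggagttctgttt
Bmp10, chr6:87428744-87428993, plus strand: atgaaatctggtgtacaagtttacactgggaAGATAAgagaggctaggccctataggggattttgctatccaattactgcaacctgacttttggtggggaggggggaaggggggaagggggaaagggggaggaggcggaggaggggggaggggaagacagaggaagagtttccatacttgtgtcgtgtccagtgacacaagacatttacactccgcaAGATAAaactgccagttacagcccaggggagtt
The first of these windows is cut to the 170 bases outside annotated exons, and the others hold 250 bases.

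The Ltbp4 downstream window is rich in G and C (79.2%), with 28 CpG dinucleotides and 1 GGCGCC starting 169 bases before the start. In the full 250 bases before the RefSeq start, the Ltbp4 upstream window had 64.4% G and C, 15 CpG and no match to the 4 motifs. The Ltbp1 windows had 56.8% G and C with 12 CpG at the upstream start and 50.8% with 7 CpG at the downstream start. The upstream Ltbp1 window held 1 CAGAC match, on the opposite strand 64 bases before the start, and the downstream window held 2, at 148 and 97 bases. Bmp10 had 52% G and C, only 3 CpG and AGATAA at 219 and 33 bases before its start.

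Promoter windows of 250 bases were available for 31 of the 42 genes (38 windows, some of which overlap). Their median G and C content was 66.6%, against 60% over the windows of detected protein-coding genes and 52.4% over all windows. The median number of CpG was 22 in the members' windows, 16 for detected protein-coding genes and 6 for all. CAGAC stood in 17 of the 38 windows (44.7%), in 40.0% of those of detected protein-coding genes and in 42.2% of all. GGCGCC stood in 8 of 38 (21.1%), against 16.8% for detected protein-coding genes and 9.59% for all. TATAAA was present in 5 of 38 (13.2%), against 6.30% and 12.4%, and AGATAA in 2 of 38 (5.26%), against 5.64% and 9.99%, in the same order. These are matches of letters and were not measured as bound sites.

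Of the 42 genes, 29 were detected (69.0%), against 48.9% of all protein-coding genes. The list was chosen with earlier results of these data known, so this difference is no result about the set. All 11 receptors and coreceptors and 7 of 8 SMADs were detected, but only 6 of 13 ligands and none of 4 antagonists. The 29 detected genes had a median of 8.06 TPM, close to the 7.63 TPM of all 10767 detected protein-coding genes, and 16 of the 29 stood above that median. They ranged from percentile 8.32 (Tgfb2) to percentile 92.5 (Ltbp4) of the detected protein-coding genes. The 42 genes summed to 342 ± 2.78 TPM (SD, n = 2). Receptors and coreceptors held 34.8% ± 0.116 of that sum, latent TGF-beta binding proteins 24.5% ± 0.380, SMADs 16.5% ± 0.273 and ligands 14.5% ± 0.202.

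**Figure D1:**
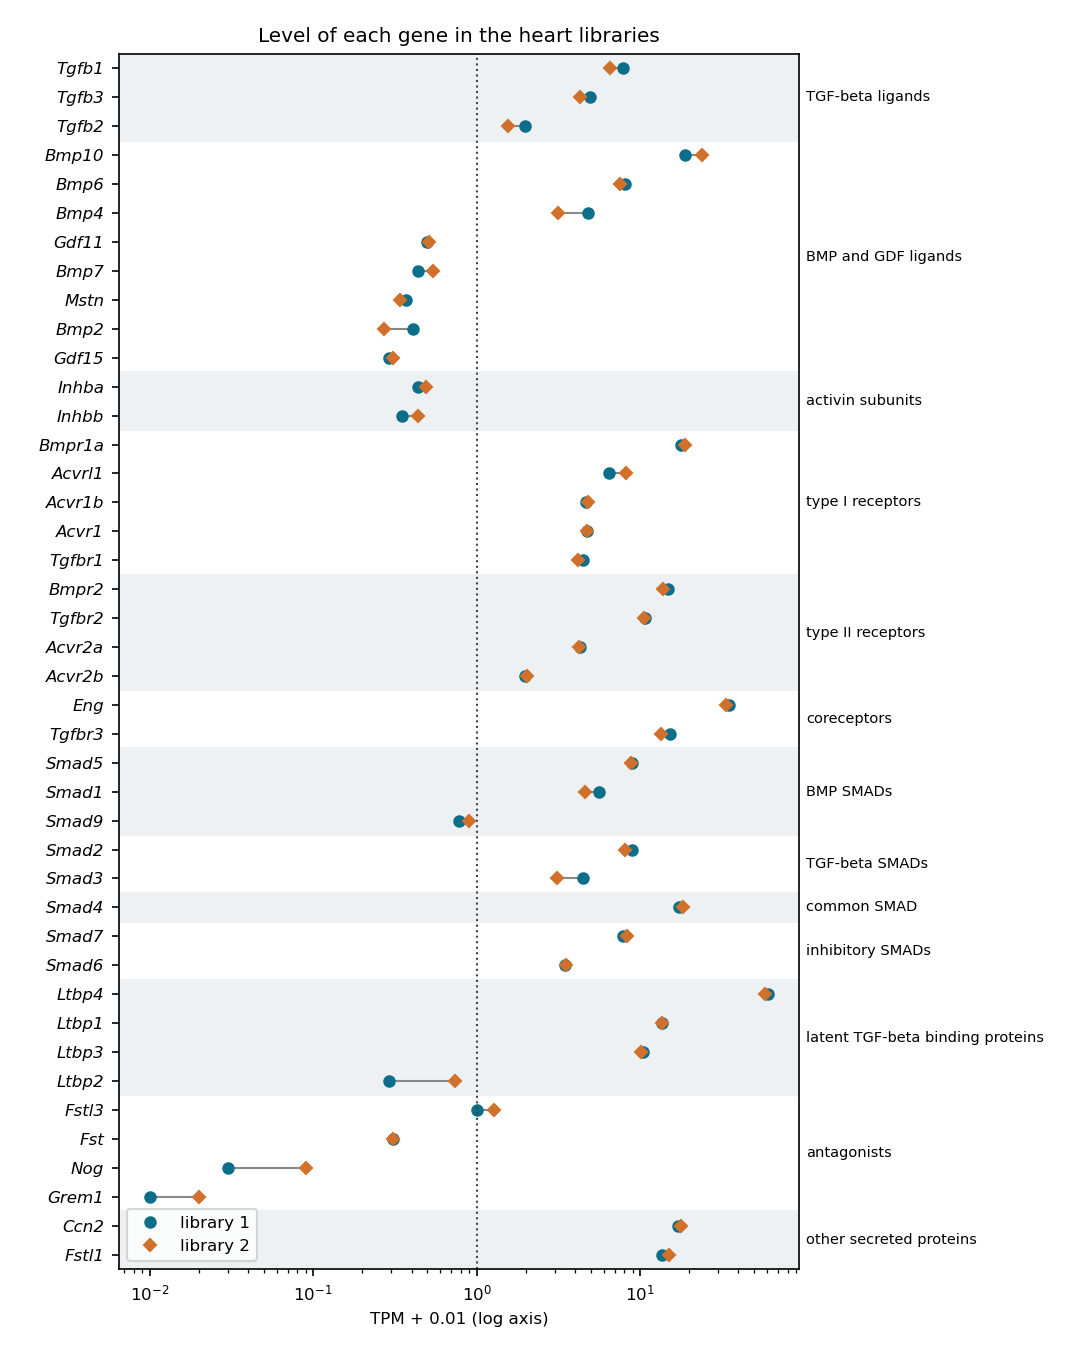
Level of each of the 42 genes in library 1 (circles) and library 2 (diamonds), as TPM + 0.01 on a log axis, grouped by role with the highest gene of each role on top. The dotted line marks 1 TPM; all 11 receptors and coreceptors lie to its right, while the activin subunits, 5 of the 8 BMP and GDF ligands and 3 of the 4 antagonists lie to its left in both libraries.

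Among the ligands, Bmp10 was the highest, and it is the ligand for which the libraries differed most clearly. Bmp10 stood at 18.94 TPM in library 1 and 23.79 TPM in library 2 (21.4 ± 3.43, SD, n = 2). Bmp6, a BMP known for its role in iron control through hepcidin in the liver, had 8.04 and 7.56 TPM (7.80 ± 0.339). Bmp4, a ligand with a central role in heart development, had 4.82 and 3.14 TPM (3.98 ± 1.19). The other BMP and GDF ligands were all below 1 TPM. Gdf11 had 0.49 and 0.50 TPM and Bmp7 0.43 and 0.53 TPM. Myostatin (Mstn), the inhibitor of skeletal muscle growth, stood at 0.36 and 0.33 TPM. Bmp2 reached 0.40 and 0.26 TPM, and Gdf15, a stress-induced member of the family, 0.28 and 0.30 TPM on 12 expected counts in each library. Bmp10 thus held most of the 35.1 ± 1.87 TPM of the 8 BMP and GDF genes.

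All 3 TGF-beta ligands were detected, at 13.5 ± 1.68 TPM in sum. Tgfb1, the isoform best known in fibrosis and immune control, had 7.82 TPM in library 1 and 6.51 TPM in library 2 (7.17 ± 0.926). Tgfb3 had 4.93 and 4.29 TPM (4.61 ± 0.453), and Tgfb2, which is needed for cushion and outflow tract development in the mouse, 1.98 and 1.55 TPM (1.77 ± 0.304). Their ranges did not overlap, and Tgfb1 held 53.1% of the 3 genes' TPM in library 1 and 52.7% in library 2. The activin subunits Inhba and Inhbb, which form activins as dimers, were below 1 TPM, at 0.43 and 0.48 TPM for Inhba and 0.34 and 0.43 TPM for Inhbb.

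All 9 signalling receptors were detected, and BMP receptors led both types. Among type I receptors, Bmpr1a (ALK3), the receptor for BMP2 and BMP4, had 17.72 and 18.89 TPM (18.3 ± 0.827). Acvrl1 (ALK1), an endothelial receptor for BMP9 and BMP10, had 6.42 and 8.16 TPM (7.29 ± 1.23). The remaining type I receptors lay close together. Acvr1b (ALK4), the activin receptor, had 4.67 and 4.77 TPM, Acvr1 (ALK2) 4.70 TPM in both libraries, and Tgfbr1 (ALK5), the TGF-beta receptor, 4.44 and 4.18 TPM. Acvr1 lay within the range of Acvr1b, so these neighbours did not differ beyond their spread.

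Among type II receptors, Bmpr2, the BMP receptor whose loss of function causes heritable pulmonary hypertension in humans, had 14.77 and 13.74 TPM (14.3 ± 0.728). Tgfbr2, the binding receptor for TGF-beta, followed with 10.70 and 10.62 TPM (10.7 ± 0.0566). The activin receptors were lower, with 4.28 and 4.25 TPM for Acvr2a and 1.97 and 2.02 TPM for Acvr2b. The ranges of these 4 genes did not overlap. Type I receptors held 54.5% of the TPM of both types in library 1 and 57.1% in library 2 (55.8% ± 1.83). The coreceptors exceeded most receptors: endoglin (Eng), an endothelial coreceptor for BMP9, BMP10 and TGF-beta, had 35.18 and 33.36 TPM (34.3 ± 1.29), and betaglycan (Tgfbr3), which presents TGF-beta2 and binds inhibin, 15.28 and 13.51 TPM (14.4 ± 1.25). Eng was above every signalling receptor in both libraries.

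Smad4, the partner shared by both branches, was the highest SMAD gene at 17.39 and 18.24 TPM (17.8 ± 0.601). In the BMP branch, Smad5 had 8.91 and 8.78 TPM (8.85 ± 0.0919), Smad1 5.64 and 4.61 TPM (5.13 ± 0.728) and Smad9 0.77 and 0.89 TPM. Smad9 was the one SMAD below 1 TPM. In the TGF-beta branch, Smad2 had 8.92 and 8.08 TPM (8.50 ± 0.594) and Smad3 4.50 and 3.11 TPM (3.81 ± 0.983). Smad2 and Smad5 overlapped in range. BMP-branch SMADs held 53.3% of receptor-regulated SMAD TPM in library 1 and 56.1% in library 2 (54.7% ± 1.95). The inhibitory Smad7, which targets type I receptors for degradation, had 7.85 and 8.26 TPM (8.06 ± 0.290), and Smad6, the inhibitor that acts mainly on the BMP branch, 3.48 and 3.52 TPM (3.50 ± 0.0283).

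Ltbp4 (chr7:27305136-27337692, minus strand), which anchors latent TGF-beta1 and takes part in elastic fibre assembly, was the highest gene of the set in both libraries. It had 60.94 TPM in library 1 and 57.97 TPM in library 2 (59.5 ± 2.10), on 9082 and 8622 expected counts. Ltbp1 (chr17:75005568-75392512, plus strand), the founding member of the group, had 13.58 and 13.54 TPM (13.6 ± 0.0283), and Ltbp3 10.44 and 10.20 TPM (10.3 ± 0.170). Ltbp2, which unlike the other members does not bind latent TGF-beta, had 0.28 and 0.73 TPM (0.505 ± 0.318), a wide spread for its mean. The 4 genes together reached 83.8 ± 1.98 TPM, against 13.5 ± 1.68 TPM for the 3 TGF-beta ligands.

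The 4 secreted antagonists of the set were low. Fstl3, which binds activins and myostatin, had 0.99 and 1.26 TPM, and so missed detection in library 1 by the last digit. Follistatin (Fst), the better-known activin antagonist, had 0.30 TPM in both libraries. Noggin (Nog) rested on 1 and 4 expected counts, and gremlin (Grem1) on 0 and 1, where a count of 0 allows up to 3 counts. The antagonists summed to 1.48 ± 0.240 TPM, or 0.433% ± 0.0738 of the set. By contrast, Ccn2 (connective tissue growth factor), a secreted matrix protein widely read as a TGF-beta target, had 17.16 and 17.70 TPM (17.4 ± 0.382). Fstl1, a glycoprotein that binds BMP4 and is made by epicardial and other stromal cells, had 13.58 and 15.06 TPM (14.3 ± 1.05).

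In the order of mean levels, 26 of the 41 neighbouring pairs overlapped in range over the libraries. The ranges were separate in the descending runs Ltbp4, Eng, Bmp10 and Bmpr1a; Bmpr2, Ltbp1, Tgfbr2, Ltbp3 and Smad5; and Tgfb2, Fstl3, Smad9 and Ltbp2, as well as Gdf15, Nog and Grem1. They were also separate between Ccn2 and Tgfbr3, Tgfb1 and Smad1, and Smad6 and Acvr2b. The order of all other neighbours is within the spread of these samples. These runs did not all hold in the second quantification described below. There Ltbp1 (15.06 and 14.40 TPM) stood above Bmpr2 (14.00 and 13.12 TPM). Bmp10 (17.89 and 22.60 TPM) and Bmpr1a (18.02 and 19.91 TPM) overlapped, and Smad4 (20.01 and 24.09 TPM) had a higher mean than both. Smad9 (0.75 and 0.86 TPM) and Ltbp2 (0.31 and 0.77 TPM) overlapped as well. In the first quantification with protein-coding transcripts only, Ltbp3 (6.10 and 7.30 TPM) and Smad5 (6.89 and 7.14 TPM) overlapped. The places of Nog and Grem1 rest on 1 and 4 and on 0 and 1 expected counts.

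The spread between the libraries was set against counting error with the ratio of expected counts, library 2 over library 1, scaled by library totals. Each ratio carries an exact (Clopper-Pearson) 95% interval, which covers counting error only and says nothing of differences between tissue samples. With at least 10 counts in a library, 40 of the 42 genes had such an interval, and in 9 of them (22.5%) it left out 1, against 21.1% of the 16092 genes measured in the same way. Of these, 3 of 40 lay above 1, against a background of 11.4%, and 6 of 40 below 1, against 9.68%. The share is near that of all genes and is no result about the set. None of the 30 members with a mean of at least 1 TPM differed 2-fold in log2(TPM + 1), against 0.603% of 11940 genes. Their median log2 ratio was -0.01, as was that of all such genes. These are replicates of 1 group, so the ratios describe spread and are no response to a condition.

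Bmp10 had the ratio farthest above 1 among the detected members, at 1.27 (interval 1.21 to 1.34, on 2757 and 3258 counts). Markers of the atria moved with it: the 5 atrial genes summed to 1169 TPM in library 1 and 1559 TPM in library 2. By the same interval 4 of the 5 were higher in library 2, against 11.4% of all genes, and none was at 0. An interval narrows as counts rise, and these genes were not set against genes of like counts. Nppa, the gene of atrial natriuretic peptide, had 617 and 842 TPM, and Myl4, the atrial light chain, 263 and 355 TPM. The part of atrial tissue in the Bmp10 ratio was not tested. Acvrl1 was the other detected gene higher in library 2, at 1.14 (1.02 to 1.28, on 595 and 632 counts), and Ltbp2 had 1.48 (1.05 to 2.09) on only 61 and 84 counts.

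Eng and Bmpr2 were lower in library 2, with narrow intervals of 0.918 (0.875 to 0.964) and 0.923 (0.890 to 0.958). The 6 endothelial markers summed to 180 TPM in library 1 and 164 TPM in library 2, with 5 of 6 lower in library 2, none higher and none at 0. Eng thus differed in the same direction as these markers and Acvrl1, also an endothelial gene, in the other. Smad3 was lower at 0.798 (0.706 to 0.900, on 629 and 467 counts) and Smad1 at 0.851 (0.746 to 0.971). Tgfb3 at 0.878 (0.772 to 0.998) and Inhba at 0.699 (0.487 to 0.996, on 83 and 54 counts) lay at the edge of the interval. Of the 6 fibroblast markers, 2 were lower in library 2 and none higher. The 6 summed to 194 and 183 TPM, most of it from Dcn (119 and 110 TPM). Adipocyte markers differed more than any other list, at 10.04 and 37.9 TPM with all 5 genes higher in library 2. Over all genes, the interval lay above 1 in 11.4% and below 1 in 9.68%, and none of these marker lists was matched for counts. Of the 7 cardiomyocyte markers, 3 were higher in library 2 and 3 lower. The part of cell composition in these ratios was not tested.

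The deposited tables also give their own interval around the estimated TPM of each gene, at a level they do not state. These intervals were separate between the libraries for 2 of the 30 members, Bmp10 and Bmpr2, against 5.96% of the 11940 genes. For 9 of the 40 genes the scaled count ratio and the TPM differed in direction. The share of all genes for which this holds was not computed, so the count is no result about the set. Of the 9 genes with an interval that left out 1, the directions differed for Inhba, with 83 and 54 counts but 0.43 and 0.48 TPM. Tgfb1, Tgfbr3, Ltbp4 and Bmp4 were among the others. For Bmp4, the TPM of 4.82 and 3.14 stood on nearly equal counts of 141 and 134, with a ratio of 1.02 (0.800 to 1.30).

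**Figure D2:**
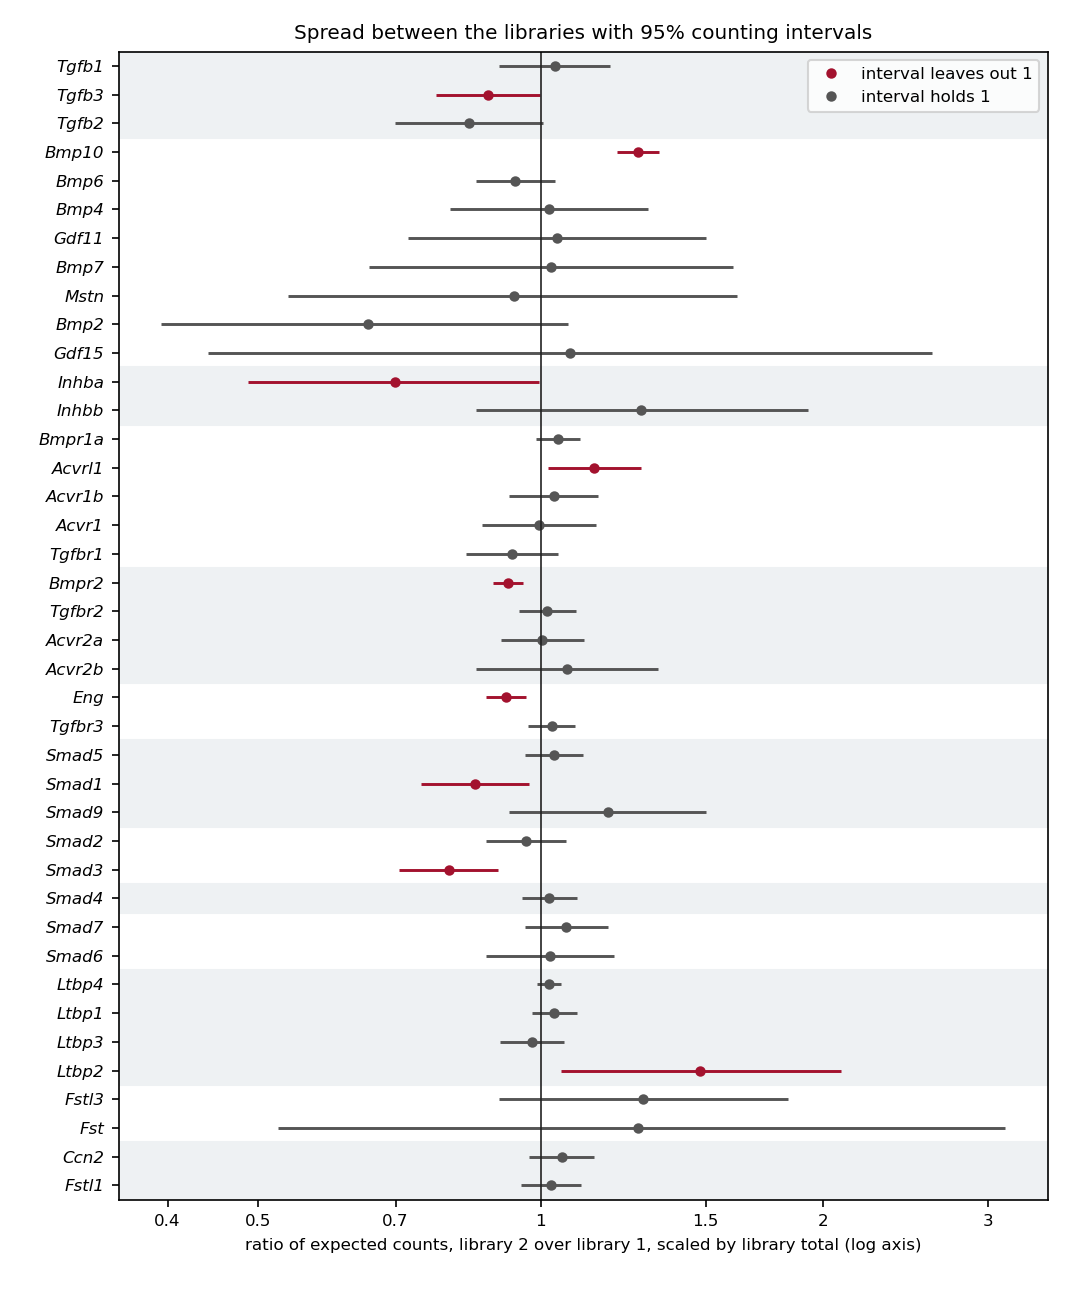
Ratio of expected counts, library 2 over library 1, scaled by library total (log axis), for the 40 genes with at least 10 counts in a library; bars are exact 95% counting intervals. The 9 genes in red have intervals that leave out 1, 3 above (Bmp10, Acvrl1, Ltbp2) and 6 below.

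Each library was also quantified a second time by the authors with another estimator, which gives values per transcript. Levels per gene were close: none of the 30 members with a mean of at least 1 TPM differed 2-fold between quantifications, against 1.01% of 11194 protein-coding genes. The log2 difference, second minus first, ran from -0.23 (Smad5) to 0.29 (Smad4). Smad4 had 22.05 ± 2.88 TPM in the second quantification, where a short processed transcript, Smad4-203, held 3.08 and 6.24 TPM against 0 TPM in both libraries of the first. Smad5 had 7.37 ± 0.336 TPM in the second quantification, where the retained-intron transcript Smad5-206 stood at 0.33 TPM in both libraries, against 2.02 and 1.64 TPM in the first.

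The transcript with the highest mean was protein-coding in all 30 of these genes. It led in all 4 tables (2 libraries, 2 quantifications) for 26 of the 29 detected genes, against 73.1% of detected protein-coding genes. The exceptions were Smad2, Acvrl1 and Bmp4, whose TPM was spread over several transcripts. Smad2-201 held 29.6% ± 1.73 of Smad2, Acvrl1-205 43.6% ± 4.42 of Acvrl1 and Bmp4-202 37.8% ± 0.991 of Bmp4. In Bmp4 a retained-intron transcript of 258 bases, Bmp4-204, stood at 2.44 TPM in library 1 and 0.51 TPM in library 2. The coding transcripts of Bmp4 summed to 2.37 TPM in library 1 and 2.34 TPM in library 2. In the first quantification, coding transcripts held under 80% of the TPM in 3 of the 29 genes, against 28.6% of detected protein-coding genes. These were Bmp4 (62.0% ± 18.0), Ltbp3 (65.0% ± 9.33) and Smad5 (79.3% ± 2.82). In the second quantification there were 4 such genes, against 32.4% of detected protein-coding genes: Bmp4, Smad4, Tgfb2 and Tgfbr3. Only Bmp4 was under 80% in both.

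For some genes the leading transcript was the same but its share was not. Eng-201 held 64.5% ± 6.25 of Eng in the first quantification, against 40.1% ± 6.39 in the second. The difference went largely to Eng-202, which shares its start and had 3.62 and 2.05 TPM in the first quantification, against 11.26 and 9.48 TPM in the second. Smad4-201 held 83.1% ± 5.39 and 54.8% ± 6.82, and Bmp6-201 94.5% ± 0.960 and 69.8% ± 5.24. Other genes gave nearly the same share both times: Tgfbr2-201, the shorter of its 2 transcripts, held 70.4% ± 0.953 in the first and 73.4% ± 0.677 in the second, and Bmpr1a-201 66.1% ± 1.80 and 61.2% ± 2.70. The single annotated transcript of Bmp10, Tgfb3 or Acvr1b leaves no such choice.

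**Figure D3:**
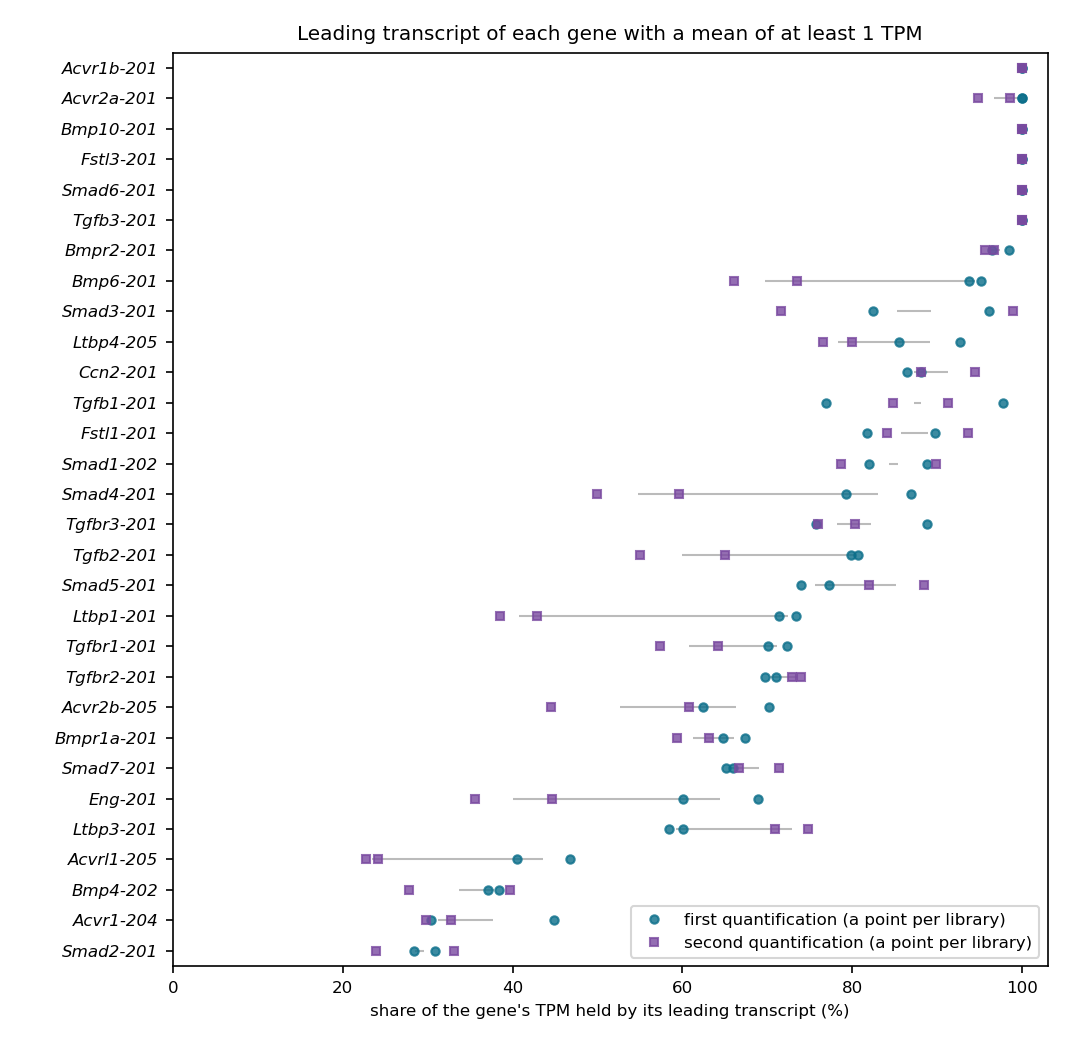
Share of each gene's TPM held by its leading transcript, in percent, for the 30 genes with a mean of at least 1 TPM; circles are the libraries in the first quantification, squares the libraries in the second, and grey lines join the means. Eng, Ltbp1, Smad4 and Bmp6 have their squares well to the left of their circles, while Tgfbr2 and Bmpr1a keep them close.

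Ltbp1 and Ltbp4 each have full-length coding transcripts (at least 4000 bases) that begin at 2 separate start sites. The sequences above lie at these sites, but their motif distances are from RefSeq starts. For Ltbp1 the RefSeq starts are positions 75005529 and 75178781, which lie before the starts of the transcripts counted here. For Ltbp1, the upstream start (Ltbp1-201 and Ltbp1-210, chromosome 17, position 75005568) gave 9.69 TPM in library 1 and 9.94 TPM in library 2. The downstream start (Ltbp1-202 and Ltbp1-203) gave 3.09 and 3.20 TPM. The upstream start thus held 75.7% ± 0.124 of the full-length TPM, and 63.3% ± 0.314 in the second quantification. The transcripts from the upstream start encode the long form of the protein and those from the downstream start the short form.

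For Ltbp4 nearly all came from the downstream start. The transcripts that begin at position 27333663 of chromosome 7 (Ltbp4-203 and Ltbp4-205) gave 53.08 and 54.48 TPM, and those from position 27337692 (Ltbp4-201 and Ltbp4-202) 0.37 and 0.19 TPM. The upstream start held 0.520% ± 0.244 in the first quantification but 14.5% ± 0.00291 in the second, with 7.14 and 7.30 TPM. The libraries thus differed by less within a quantification than the quantifications did from each other. In both, the downstream start with the G- and C-rich window held the larger part of Ltbp4, and the upstream start that of Ltbp1.

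**Figure D4:**
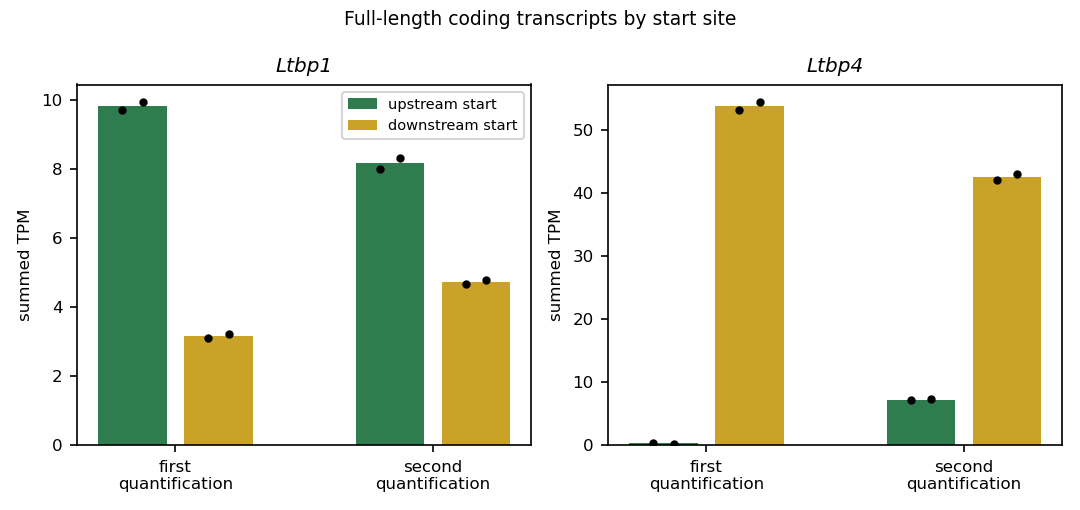
Summed TPM of full-length coding transcripts from the upstream start (green) and downstream start (yellow) of Ltbp1 and Ltbp4 in each quantification; bars are means and dots the 2 libraries. The upstream start leads in Ltbp1 (9.69 and 9.94 TPM, first quantification) and the downstream start in Ltbp4 (53.08 and 54.48 TPM).

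Another 76 genes of the pathway were measured beside the set. Of these, 44 were detected (57.9%), against 48.9% of all protein-coding genes, but these lists too were chosen with earlier results known. A count interval was available for 58, and it left out 1 in 37.9% of them, against 21.1% of all genes. It lay above 1 in 10 genes (17.2%, background 11.4%) and below 1 in 12 (20.7%, background 9.68%). An interval narrows as counts rise, and these shares were not set against genes of like counts. They are therefore no result about these genes. None was past 2-fold, against 0.603% of all genes. Of 17 other ligands only 1 was detected, the inhibin alpha subunit gene Inha, at 1.45 and 1.54 TPM, followed by Gdf10 at 0.48 and 0.57 TPM. Gdf2, which encodes BMP9, a ligand of Acvrl1 and Eng made mainly in the liver, rested on 7 and 6 counts at 0.07 TPM in each library; it was named after its values were seen. Of 7 other receptors and coreceptors 3 were detected, and hemojuvelin (Hjv), a BMP coreceptor of muscle and liver known for iron control, had 98.9 and 102 TPM, above every member of the set. Rgma, a related BMP coreceptor, had 20.3 and 19.3 TPM.

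Of 12 other antagonists and modulators, 4 were detected, led by the matrix proteoglycans Dcn (119 and 110 TPM) and Bgn (58.0 and 55.0 TPM), which bind TGF-beta. Their count ratios of 0.919 (Dcn) and 0.944 (Bgn) had intervals below 1, the only 2 of the 8 measured. Also detected among these antagonists and modulators were Twsg1 (22.0 and 24.3 TPM) and Dand5 (4.21 and 4.10 TPM), both named after their values were seen. Of 13 genes of ligand processing and latency, 11 were detected, led by the proprotein convertase Furin (29.2 and 27.7 TPM) and the integrin subunit Itgb5 (28.9 and 27.3 TPM). In that list 7 of 13 intervals lay below 1 and 1 above, against 9.68% and 11.4% of all genes, again without a match for counts. All 12 intracellular regulators were detected, with the phosphatase Ppm1a at 84.7 and 89.9 TPM and the receptor-binding Fkbp1a at 59.0 and 62.4 TPM, and 3 of 12 intervals lay above 1 and 2 below. Of 15 genes known as transcriptional targets, 13 were detected, with Col3a1 (collagen III) at 24.1 and 24.0 TPM and Acta2 (smooth muscle actin) at 25.2 and 22.5 TPM, and 3 of 14 intervals lay above 1 and 1 below. Dcn and Col3a1 also stand in the fibroblast marker list used above, and Acta2 in the smooth muscle list, so their ratios are not separate observations.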

How the data were processed

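Total RNA (300 ng a library, directional kit, ribosomal RNA reduced, ERCC spike-ins, per the labels) was quantified on mm10 with GENCODE M21, per the deposited readme. Aligner and tool versions were not given in the sources used here. The first quantification, in the RSEM layout, holds expected counts, TPM and FPKM per the file headers. The deposited transcript tables in the kallisto layout (second quantification) hold estimated counts and TPM, which were summed per gene. The TPM values were scaled to a fixed total by the authors, and the deposited FPKM served as an alternative. Strand was kept, so antisense genes can be told apart, while reads shared by transcripts or near-identical genes were split by the authors' estimators.

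Genes were found by symbol. The members and lists were chosen with earlier results of these data known. All 42 members are named, with the 2 genes of highest mean TPM of each other list. Gdf2, Twsg1 and Dand5 were named in addition, after their values were seen. Groups came from the labels, which give 1 group. With no contrast, no p-value was computed. Expected counts were rounded for intervals (exact conditional binomial, 95%, at least 10 counts in a library). A 2-fold ratio was asked of log2((TPM + 1)/(TPM + 1)), with a mean of at least 1 TPM, and this scale understates ratios of low genes. A start-site class holds coding transcripts of at least 4000 bases that begin within 500 bases. The interval step was tested on simulated counts. Alternatives were other library scaling (edgeR 4.0.16, DESeq2 1.42.0, R 4.3.3), thresholds, pseudocount, FPKM, coding transcripts only, the second quantification and leaving out each library. Scripts used scipy 1.17.1, pandas 2.3.3, numpy 2.4.6 and matplotlib 3.10.9 under Python 3.11.15. Promoter windows came from RefSeq, GRCm38.p6. Protein sequences were not used here.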

Additional observations from a re-analysis of the deposited data

How the results depend on the processing

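With 2 libraries of 1 group, depth limits the low genes: below about 1 TPM most members had under 100 counts. The number of detected members was 29, 31 at a threshold of 0.5 TPM and 27 at 2 TPM, and 29 to 30 when either library was left out. The 9 members with an interval that left out 1 were 10 with TMM scaling, which added Tgfb2, and 10 in the second quantification, which lost Tgfb3 and Ltbp2 and added Tgfb2, Bmp2 and Bmpr1a. DESeq2 size factors gave the same 9 genes. The count of members past 2-fold was 0 under each alternative tried. Without the filter on low values the pseudocount of 1 TPM stayed, and with it a gene below 1 TPM in both libraries cannot reach 2-fold. The count therefore says nothing of such members, for example Ltbp2 at 0.28 and 0.73 TPM. The Tgfb1 share of TGF-beta ligand TPM (52.9%) was 51.1% in the second quantification, 50.2% with coding transcripts only and 37.0% by expected counts, which are not scaled for length. The share of BMP-branch SMADs (54.7%) was 52.2%, 50.5% and 60.7% in the same order. In library 1 of the second quantification, BMP-branch SMADs were the lower of the branches, at 13.80 against 14.23 TPM. In library 2 they were the higher, at 13.14 against 10.71 TPM. By expected counts the type I receptor share (55.8%) was 37.1% and the ligand share (14.5%) 11.8%; the latter was 14.8% in the second quantification. The upstream start share was 63.3% rather than 75.7% for Ltbp1 and 14.5% rather than 0.520% for Ltbp4 in the second quantification, alternatives chosen after seeing the data. Their cause was not tested. Leaving out either library leaves the value of the other, which with 2 libraries is no test of stability: the shares were 52.7% to 53.1% for Tgfb1, 53.3% to 56.1% for BMP-branch SMADs, 54.5% to 57.1% for type I receptors, 14.3% to 14.6% for ligands, 75.6% to 75.8% for Ltbp1 and 0.348% to 0.692% for Ltbp4. The TPM of 20 of 42 members moved by more than their spread in the second quantification and that of 14 of 42 with coding transcripts only. That spread is the SD of 2 libraries and very small for some genes, so that Gdf11 counts as moved at 0.495 and 0.475 TPM. The share of all genes that moved was not computed, so these counts are no result about the set. The median absolute log2 difference between quantifications was 0.071 in the 30 members with a mean of at least 1 TPM, against 0.088 for protein-coding genes. No paired analysis was possible because there is only 1 group.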
